A study of Mus musculus with 8 samples.

Results

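Receptors for glutamate and GABA, the main excitatory and inhibitory transmitters of the brain, are encoded by 47 protein-coding mouse genes, chosen by their symbols in GENCODE release M21 out of 21938 protein-coding genes. There were 26 glutamate receptor genes, with symbols in Gria, Grik, Grid, Grin1 to Grin3 and Grm, and 21 GABA receptor genes, with symbols in Gabra, Gabrb, Gabrg, Gabrd, Gabre, Gabrp, Gabrq, Gabrr and Gabbr. The rule used symbols alone and no measured value. Their chromatin accessibility was measured with ATAC-seq, an assay whose transposase inserts adapters where DNA is exposed, in SN4741 cells at the permissive temperature (37 °C) and the non-permissive temperature (39 °C).

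SN4741 is reported as a clonal mouse line from embryonic substantia nigra, immortalized by a temperature-sensitive SV40 T antigen behind a tyrosine hydroxylase promoter, and the study describes its karyotype as unstable and polyploid. The labels call it neural precursor cells of genotype WT, and cells of both groups carry the transgene. The 4 libraries at 37 °C came from cells grown in 10% serum. The 4 libraries at 39 °C came from cells moved to 39 °C and 0.5% serum for 48 h, so temperature and serum cannot be told apart in any comparison of the groups. Each library was made from 50000 cells, and nothing in the labels says whether replicates were separate cultures, so p-values measure the spread between these libraries, which may be technical.

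Ionotropic glutamate receptors are tetrameric cation channels of the AMPA, kainate and NMDA classes, to which the delta subunits are related in sequence. Metabotropic glutamate receptors signal through G proteins. GABA-A receptors are pentameric chloride channels assembled from alpha, beta, gamma and rarer subunits, and the GABA-B receptor is a G protein-coupled pair in which GABBR1 binds GABA and GABBR2 engages the G protein. Many of these genes are switched on as neurons mature, and a promoter that is open in chromatin need not be transcribed.

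The peak caller kept 49.8 to 169 M (mega) fragments per library and called 54845 to 92013 peaks. Replicates 1 and 4 at 37 °C were the deepest, with 169 and 158 M fragments, against 49.8 to 71.2 M in the other 6 libraries. Replicate 4 at 39 °C had the shortest list. No list held a peak shorter than its mean fragment length of 267 to 319 bp, so a narrow open site can be missing from a list whatever its height. Among markers of neural precursors, promoter peaks were called in all 8 libraries at Sox2, Pax6, Nes and Msi1, in 7 at Sox1, in 2 at Hes5 and in none at Fabp7. Peaks in all 8 libraries were also found at 5 of 8 neuronal, 5 of 6 mesenchymal and 3 of 3 astrocyte markers, and at 1 of 4 oligodendrocyte and 0 of 3 endothelium and blood markers. Sox10 and Pecam1 had peaks in 7 libraries, and Dcx, Elavl4, Olig2, Mog, Cdh5 and Ptprc in none. The part of cell identity in the results that follow was not tested.

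Most receptor promoters had no peak. A promoter peak, meaning a peak overlapping the window of 1 kb around any transcription start site (TSS) of the gene, was called in all 8 libraries at 15 of 47 receptor genes (31.9%), against 59.9% of all protein-coding genes. At 27 receptor genes (57.4%) no library had a promoter peak, against 31.3% of coding genes, and these promoters are called closed below, which means only that no peak was called at this depth. The remaining 5 genes were called in some libraries. At least 2 libraries of each temperature had a promoter peak at 17 receptor genes (36.2%), against 62.7%. Per library, 18 to 20 receptor genes had a promoter peak at 37 °C and 15 to 17 at 39 °C, while over all coding genes the share was 65.1% to 67.8% and 60.5% to 63.0%.

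**Figure D1:**
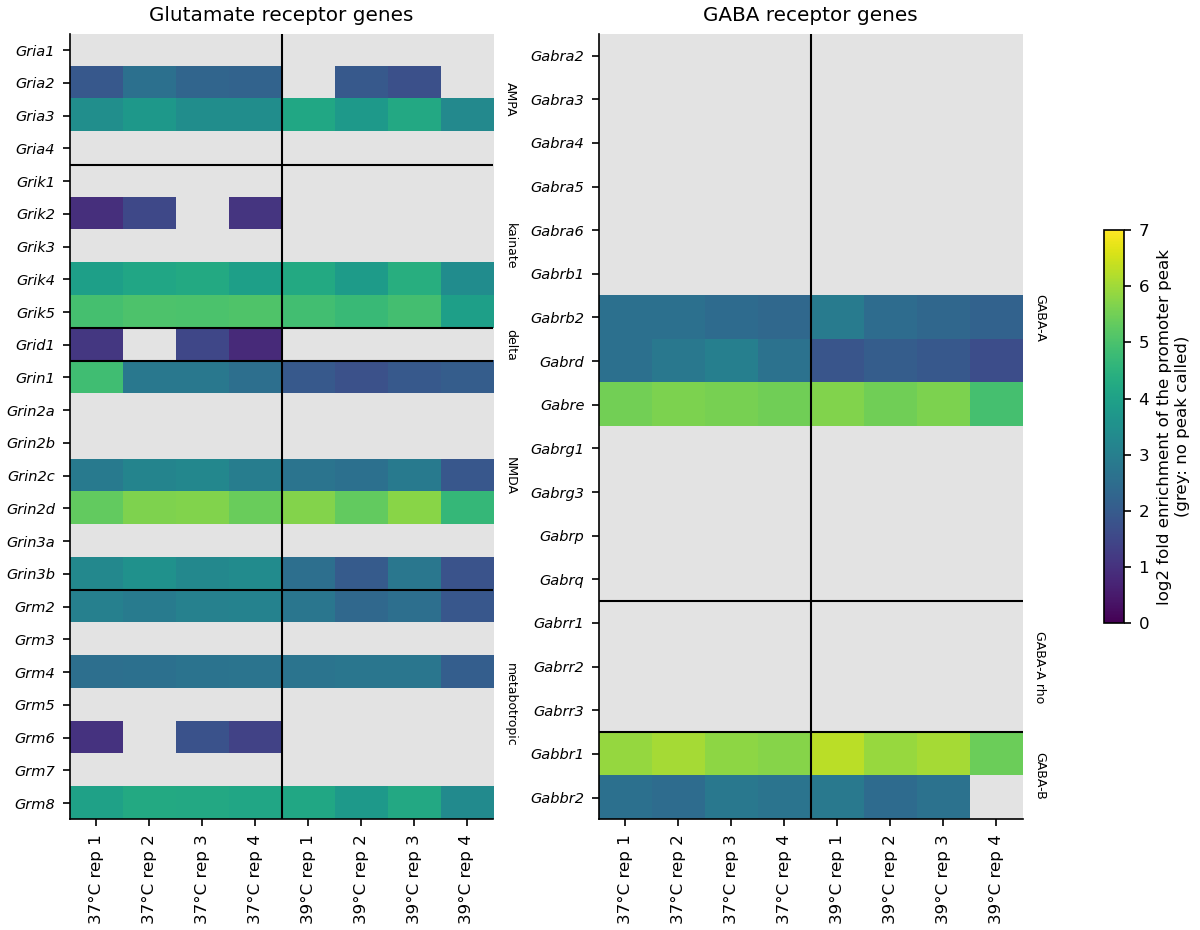
Height of the promoter peak of 42 of the receptor genes (rows, grouped by family) in each library (columns), as log2 fold enrichment over the genome-wide background of that library, with grey where no peak was called. Whole blocks of GABA-A alpha, gamma and rho genes are grey in all 8 libraries, Gabbr1, Gabre and Grin2d are the brightest rows, and Grik2, Grid1 and Grm6 are coloured only at 37 °C.

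Both open and closed receptor promoters included CpG-rich ones, which is why the following are shown. They are reference sequence from the RefSeq promoter table (GRCm38.p6), cut to the part outside any annotated exon and read on the strand of the gene, with CpG dinucleotides in capitals. Gabbr1 (chr17:37045716-37045965, plus strand, 16 CpG in 250 bases) and Gabre (chrX:72274804-72274971, minus strand, 17 CpG in 168 bases) had peaks over them in all 8 libraries. The stretch of Gria2 (chr3:80802836-80803085, minus strand, 19 CpG in 250 bases) lay under peaks in 4 libraries at 37 °C and 2 at 39 °C, and that of Gabbr2 (chr4:46991874-46991964, minus strand, 15 CpG in 91 bases) in 3 at 37 °C and 0 at 39 °C. Grik3 (chr4:125490446-125490699, plus strand) held the most, with 42 CpG in 254 bases, and had a peak in no library.
Gabbr1: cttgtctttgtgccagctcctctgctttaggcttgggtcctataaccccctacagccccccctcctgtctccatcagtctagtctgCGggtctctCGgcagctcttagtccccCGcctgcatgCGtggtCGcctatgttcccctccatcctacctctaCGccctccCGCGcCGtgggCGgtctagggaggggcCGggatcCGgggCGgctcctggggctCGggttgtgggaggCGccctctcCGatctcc
Gabre: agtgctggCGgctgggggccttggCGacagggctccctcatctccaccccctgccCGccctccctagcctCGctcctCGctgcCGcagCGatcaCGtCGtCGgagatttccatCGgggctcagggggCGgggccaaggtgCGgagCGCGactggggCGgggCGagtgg
Gria2: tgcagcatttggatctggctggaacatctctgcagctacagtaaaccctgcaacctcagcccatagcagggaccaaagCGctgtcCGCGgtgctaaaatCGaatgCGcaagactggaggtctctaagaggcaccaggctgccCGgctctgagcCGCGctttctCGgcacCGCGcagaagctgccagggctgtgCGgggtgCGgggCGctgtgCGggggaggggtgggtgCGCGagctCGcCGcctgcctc
Gabbr2: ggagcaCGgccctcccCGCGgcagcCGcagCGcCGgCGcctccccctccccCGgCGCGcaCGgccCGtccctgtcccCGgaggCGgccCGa
Grik3: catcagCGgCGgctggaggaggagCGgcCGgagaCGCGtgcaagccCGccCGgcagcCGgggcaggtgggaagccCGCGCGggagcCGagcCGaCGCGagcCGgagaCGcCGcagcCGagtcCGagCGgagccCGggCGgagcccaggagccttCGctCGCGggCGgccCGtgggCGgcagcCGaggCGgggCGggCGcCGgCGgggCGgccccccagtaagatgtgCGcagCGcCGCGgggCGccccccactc
The table held promoters of 32 of the 47 genes.

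Among the AMPA receptor genes, whose products carry most fast excitatory transmission, Gria3 was open in every library and Gria2 in 6, whereas Gria1 and Gria4 had no promoter peak. The Gria3 promoter peak had a fold enrichment of 10.9, 13.3, 10.7 and 10.8 in replicates 1 to 4 at 37 °C and 18.0, 13.5, 18.6 and 9.90 at 39 °C. Gria2, the subunit that sets calcium permeability, reached 3.79, 6.05, 4.86 and 4.65 at 37 °C, and at 39 °C only replicates 2 and 3 had a peak, at 3.88 and 3.29. Fold enrichment is the ratio of fragments at the summit to one background for the whole library, so it is read here within a library or after centring.

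Of the kainate receptor genes, Grik4 and Grik5, which encode the high-affinity subunits, were open in all 8 libraries. The Grik5 peak stood at 30.7, 32.8, 32.1 and 33.7 at 37 °C and at 29.6, 27.0, 29.8 and 15.5 at 39 °C. It also covers the TSS of Zfp574, a zinc finger gene, and its summit lay at -844 bp from the Grik5 main TSS, so the signal cannot be assigned to Grik5 alone. Grik4 had 15.3, 17.7, 19.2 and 15.4 at 37 °C and 19.0, 14.3, 21.1 and 10.7 at 39 °C, with its summit at -229 bp from the start. Grik1 and Grik3 were closed in every library.

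NMDA receptors need the Grin1 product in every channel, together with glutamate-binding Grin2 or glycine-binding Grin3 subunits. Grin1, Grin2c, Grin2d and Grin3b had promoter peaks in all 8 libraries, and Grin2a, Grin2b and Grin3a had none. Grin2d was the strongest, with 40.2, 50.4, 51.1 and 42.1 at 37 °C and 51.6, 40.1, 54.0 and 25.4 at 39 °C. That peak lay 4153 bp inside the gene from the start of its principal transcript, the one that the APPRIS tags of the annotation mark as main. The RefSeq table places its Grin2d start near that peak. At the principal Grin1 start the peak had 5.14, 6.50, 6.93 and 5.91 at 37 °C and 3.84, 3.33 and 3.49 in replicates 1 to 3 at 39 °C, with none in replicate 4. The eighth library counted for Grin1 through internal starts.

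Grm2, Grm4 and Grm8, whose receptors couple to inhibitory G proteins, were open in all 8 libraries. Grm5, whose receptor activates phospholipase C, was closed, as were Grm3 and Grm7. Grm8 had 16.1, 19.1, 18.9 and 17.8 at 37 °C and 18.0, 13.5, 18.6 and 10.1 at 39 °C, with its summit at -1491 bp from the main TSS. Grm6, the receptor of retinal ON bipolar cells, was called in 3 libraries at 37 °C only.

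GABA-A receptor genes were mostly closed, at 12 of 16, and the 3 rho genes, known from the retina, were closed as well. Alpha subunits are needed for the usual GABA-A receptor, and none of Gabra2, Gabra3, Gabra4, Gabra5 and Gabra6 had a promoter peak in any library. Gabrg1 and Gabrg3, Gabrb1, Gabrp and Gabrq were closed too. Open ones included Gabrb2, Gabrd, which encodes an extrasynaptic subunit, and Gabre. Gabre had 45.5, 49.0, 47.4 and 44.4 at 37 °C and 50.8, 44.9, 49.3 and 30.5 at 39 °C. Gabbr1 of the GABA-B pair carried the highest promoter peak of all 47 genes, with 59.4, 66.9, 56.1 and 52.9 at 37 °C and 77.6, 60.3, 66.8 and 42.7 at 39 °C, and it ranked in the top 7.90% to 11.3% of each list by significance.

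CpG content separated open from closed promoters less well in these genes than in the genome. With the ratio of observed to expected CpG within 500 bp of the main TSS split at 0.6, 8 of 19 CpG-rich receptor promoters (42.1%) were open in all 8 libraries, against 91.4% of CpG-rich coding genes. Conversely, 7 of those 19 (36.8%) were closed in every library, against 4.63%. They included Grik3 (ratio 0.929) and Gabra5 (0.835). Below the split, 7 of 28 (25.0%) were open in all 8, against 31.3% of coding genes, and 20 (71.4%) in none, against 55.5%.

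**Figure D2:**
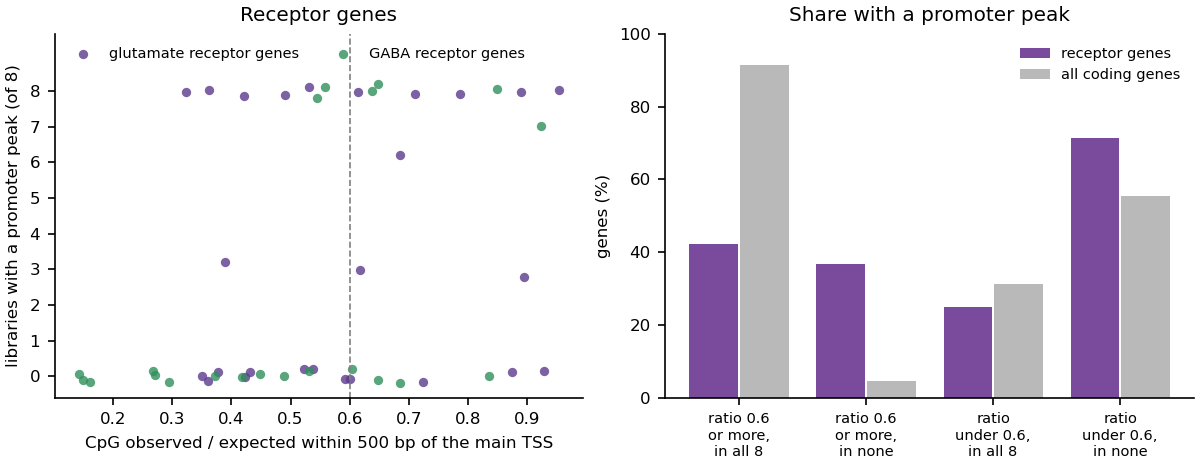
Left, the ratio of observed to expected CpG of each receptor promoter against the number of libraries, of 8, with a promoter peak, with points jittered vertically and a dashed line at the split of 0.6. Right, the percentage of receptor genes and of all coding genes open in all 8 libraries or in none on each side of the split, where the CpG-rich receptor genes reach 42.1% and 36.8% against 91.4% and 4.63%.

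Accessible regions were also sparse inside the receptor genes. Peaks of all libraries were merged into regions, and a region called by at least 2 libraries was kept, which gave 84777 regions. In all, 107 lay in a receptor gene or within 1 kb of one of its starts, of which 31 were receptor promoters, 2 were promoters of other coding genes (Kdelr1 in Grin2d and Ppp3r2 in Grin3a) and 74 lay elsewhere in the gene bodies. Over the gene bodies there were 0.847 regions per 100 kb, against 5.23 over all coding genes. Many receptor genes are long, but among genes of at least 100 kb the 26 receptor genes still held 0.60 regions per 100 kb and all 2492 coding genes 3.24. Of the 107 regions, 44 (41.1%) were called in all 8 libraries, against 52.9% of all regions.

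GABA-A genes sit in clusters, and these differed. Across 1398 kb of chromosome 5 (70751047 to 72149037, mm10), from Gabrg1 through Gabra2 and Gabra4 to Gabrb1, a single region was called, 0.0715 per 100 kb against 3.11 for the genome. That region, in an intron of Gabrb1, was present in all 8 libraries. The X-linked cluster of Gabre, Gabra3 and Gabrq held 10 in 587 kb, or 1.7 per 100 kb, and the rho genes Gabrr2 and Gabrr1 held 2 in 101 kb, or 1.99 per 100 kb. All 5 clusters examined, these 3 among them, lay below the genome.

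A closed promoter did not exclude strong sites inside the gene. Gria1 had no promoter peak, yet an intronic region 79.6 kb downstream of its start (chromosome 11, 57089721 to 57092603) had the highest peaks of any receptor region, at 84.0, 87.4, 80.4 and 89.6 at 37 °C and 93.8, 93.2, 102 and 54.6 at 39 °C. A further Gria1 intronic region at 128.6 kb reached 34.3 to 36.8 at 37 °C and 19.5 to 41.5 at 39 °C. Neither passed the test of a difference in height between temperatures described below.

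Several receptor promoters were called in fewer libraries at 39 °C than at 37 °C, and none in more. The count fell at 5 of 47 genes (10.6%), against 7.97% of coding genes, and rose at 0, against 0.47%. It fell by 2 or more libraries at 4 (8.51%), against 5.07%, and from 4 to 0 at none, against 1.46%. Besides Gria2, these were Grid1, Grik2 and Grm6, with peaks in 3 libraries at 37 °C and none at 39 °C, and Gabbr2, with 4 and 3. All of the 3 that vanished were weak. Grid1 had 2.19, 2.80 and 1.77 in replicates 1, 3 and 4, Grik2 had 1.93, 2.89 and 2.13 in replicates 1, 2 and 4, and Grm6 had 2.03, 3.41 and 2.60 in replicates 1, 3 and 4. The lowest fold enrichment in any list was 1.54 to 2.14. When each list was cut to its 54845 most significant peaks, these 3 promoters had no peak at either temperature. By Fisher's exact test, two-sided, adjusted over all coding genes, no receptor gene passed (adjusted p = 1 for each), and none of the 21938 coding genes did either, since 4 libraries against 4 cannot give a p below 0.0286. Without adjustment 324 coding genes passed 0.05, and no receptor gene was among them.

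Which start is counted changed the counts at Gabbr2, Grin2d and Grin1, the last to 4 libraries at 37 °C and 3 at 39 °C. At the start of the principal transcript alone, a choice made after the values were seen, Gabbr2 and Grin2d each had a peak in all 4 libraries at 37 °C and in none at 39 °C, a pattern found at 1.63% of coding genes. By that start 13 receptor genes (27.7%) were open in all 8 libraries, against 56.4%, 27 in none, against 34.6%, and 7 (14.9%) in fewer libraries at 39 °C, against 8.24%. For Gabbr2 the merged region over that start (chromosome 4, 46991229 to 46992274, exonic) had 2.29, 2.17, 2.55 and 1.85 in the 4 libraries at 37 °C. The Gabbr2 peaks counted above lay 302.2 kb further along and overlapped the window of an internal start. They had 5.60 to 6.93 at 37 °C and 5.46 to 7.05 in replicates 1 to 3 at 39 °C. None of these 39 °C peaks had its summit within 1 kb of a Gabbr2 start, and the internal start is not that of a protein-coding transcript. Gabbr2 therefore also had 4 libraries at 37 °C and 0 at 39 °C when a summit within 1 kb of a start was required. Its counts were the same with starts of protein-coding transcripts only. Neither of these definitions was added after seeing the data. Under both, Grin2d kept 4 and 4. Grin2d had 2.39, 2.53, 3.41 and 2.48 at its principal start (chromosome 7, 45869136 to 45870893), far below the internal peak described above. With lists of equal length neither principal start had a peak in any library.

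Of the 107 regions, 5 (4.67%) were called in all 4 libraries at 37 °C and none at 39 °C, against 6.04% of all regions, and 0 showed the opposite, against 0.314%. Besides the principal promoters of Gabbr2 and Grin2d these were regions in Grin2c, Grm4 and Grin1. The Grin1 region (chromosome 2, 25311084 to 25313781), 7.36 kb into the gene and in an exon, had the highest peaks of them, at 3.50, 3.34, 4.13 and 3.39. The Grm4 intronic region had 2.13 to 2.80 and the Grin2c exonic region 1.96 to 3.41. None passed Fisher's exact test adjusted over all regions (p = 0.0286, adjusted p = 0.45). Without replicate 2 or replicate 3 at 37 °C the 5 became 9, and the 0 became 1 without replicate 4 at 37 °C and 2 without replicate 4 at 39 °C. With lists of equal length the order turned, with 2 regions called at 37 °C only and 3 at 39 °C only, and at −log10 q of at least 5 the 5 became 1.

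**Figure D3:**
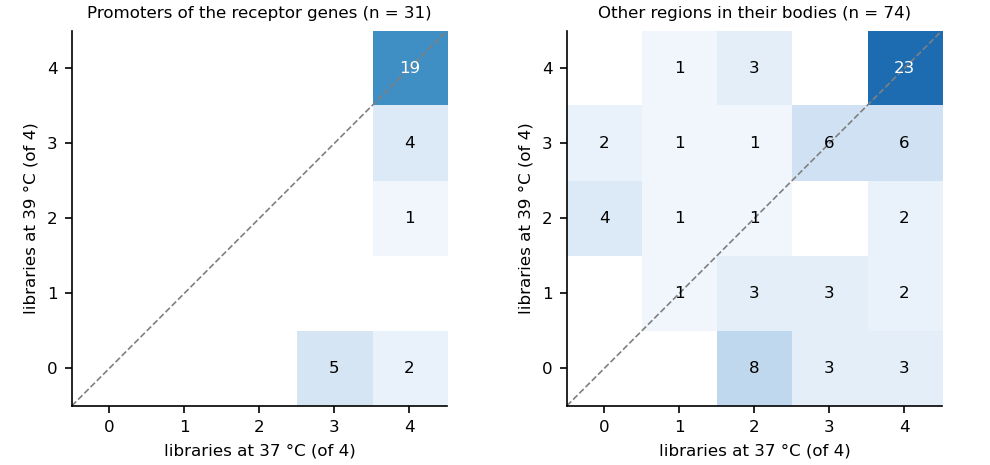
Number of receptor regions by how many libraries called them at 37 °C (x axis) and at 39 °C (y axis), for promoters of the receptor genes (left) and other regions in their bodies (right), with a dashed line where both counts are equal. No promoter lies above the line, against 1.02% of all coding promoter regions, and 13 of 74 gene-body regions do, against 6.8% of those of all coding genes.

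Inside the genes the direction was mixed. Of the 74 gene-body regions, 30 (40.5%) were called in fewer libraries at 39 °C, against 44.2% of gene-body regions of all coding genes, and 13 (17.6%) in more, against 6.8%. The 13 included 3 of 4 such regions in Gabrb2, 3 of 13 in Gabbr2, where 6 went the other way, and 1 each in Gria1, Gria3, Gabrr2 and Grm8 among those named here. Of the 31 receptor promoters, 19 (61.3%) were called in all 8 libraries, against 76.5% of coding promoters, and 12 (38.7%) in fewer libraries at 39 °C, against 21.4%. None was called in more libraries at 39 °C, against 1.02% of coding promoters. With lists of equal length 13 of 69 receptor regions (18.8%) were called in more libraries at 39 °C, against 10.3% of all regions, and 14 (20.3%) in fewer, against 17.45%, where the full lists gave 42 of 107 (39.3%) in fewer. Neighbouring regions of one gene are not independent, and no test was made over the set.

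The Gabrb2 regions form a group of 4 over 29.2 kb of the gene, 162 to 191 kb from its start. At 162.2 kb peaks were called with 6.23, 5.46, 8.19 and 3.94 at 39 °C and in replicate 4 alone at 37 °C, with 2.32. At 181.9 kb they had 8.97, 6.10, 9.38 and 5.62 at 39 °C, and 3.17 and 3.82 in replicates 1 and 4 at 37 °C. At 186.7 kb the values were 16.7, 15.5, 18.2 and 10.7 at 39 °C, and 8.08 and 9.42 in the same replicates at 37 °C. The libraries at 37 °C that called them were the deepest of the series, and the 186.7 kb peaks were only 331 to 386 bp long, close to the shortest length the lists allow. The last of the group moved the other way. At 191.4 kb (chromosome 11, 42610142 to 42611757) all 8 libraries had a peak, at 33.5, 28.3, 26.6 and 29.6 at 37 °C and 22.9, 21.4, 20.3 and 13.4 at 39 °C, with no overlap between the groups.

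In Gabbr2 a region at 202.3 kb was called in 0 and 3 libraries, with 4.85, 3.41 and 3.69 in replicates 1 to 3 at 39 °C. It neighbours the strongest Gabbr2 region, at 197 kb.

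**Figure D4:**
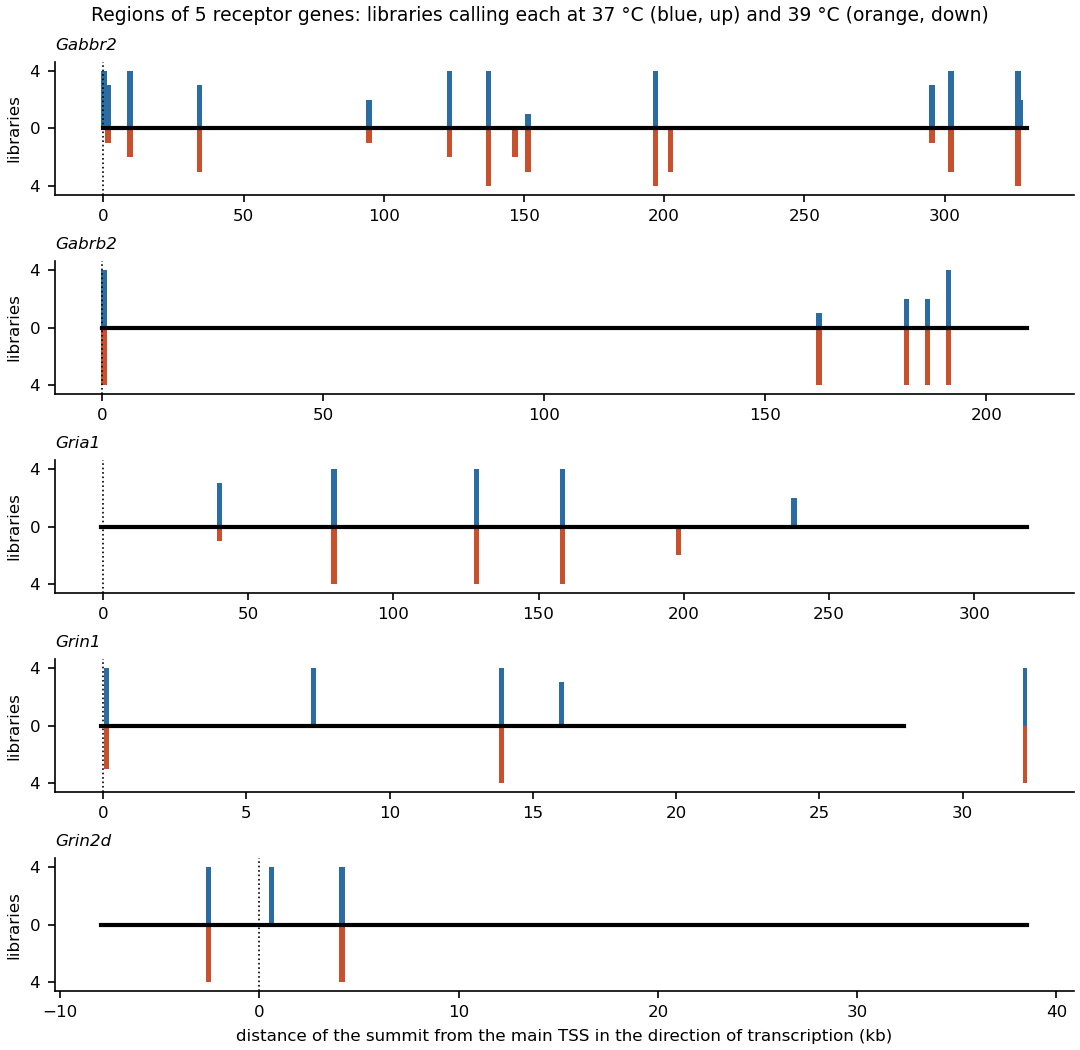
Regions of 5 receptor genes placed by the distance of the summit from the main TSS (x axis, kb, dotted line at 0), with the gene as a black bar, blue bars upward for the number of libraries calling the region at 37 °C and orange bars downward for 39 °C. Gabbr2 and Grin2d lack an orange bar at the start of the gene, Gria1 has no bar there at all, and the Gabrb2 regions gather 162 to 191 kb from its start.

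Peak heights were compared in the 44 receptor regions called in all 8 libraries. Each library was centred on its median log2 fold enrichment over the 44861 regions called everywhere, and limma was fitted to all of them with Benjamini-Hochberg adjustment. At 39 °C 8 receptor regions were higher (18.2%), against 26.9% of all regions fitted, and 13 were lower (29.5%), against 19.6%. Over all regions fitted, every centred 39 °C value lay above every 37 °C value in 22.9% and below in 16.5%. The median difference was 0.03 on the log2 scale over the 44 and 0.06 over all regions. With quantile normalization the calls over all regions were split 9324 higher and 10314 lower in place of 12052 and 8777, and those over receptor regions 7 and 13 in place of 8 and 13.

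**Figure D5:**
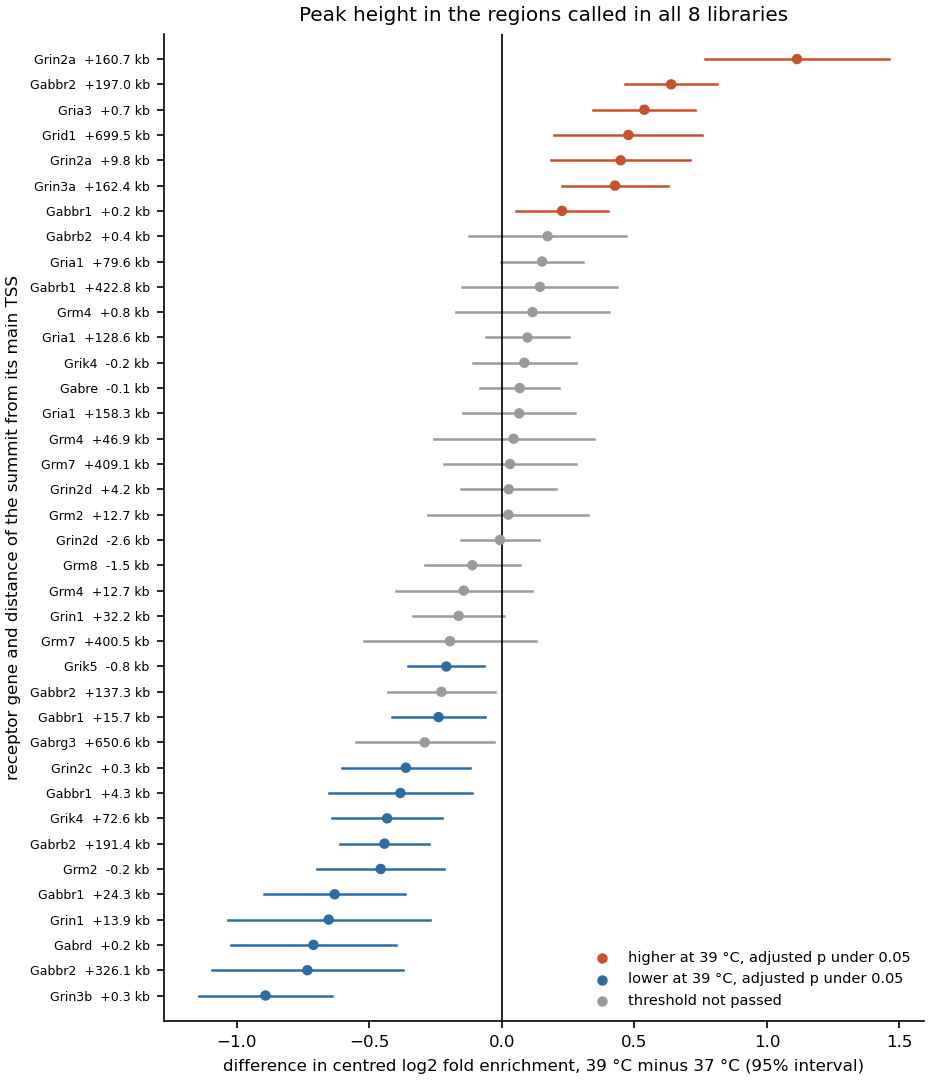
Difference in centred log2 fold enrichment between 39 °C and 37 °C for 38 of the 44 receptor regions called in all 8 libraries, with points for the limma estimates and bars for their 95% intervals, each named by its gene and the distance of its summit from the main TSS. Orange and blue mark 7 higher and 12 lower regions at 39 °C, with Grin2a at 1.11 and Grin3b at -0.89 at the ends.

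Of the 8 regions higher at 39 °C, 5 lay in gene bodies away from promoters, a class that made up 23 of the 44 regions fitted. The largest difference was in an intron of Grin2a, 160.7 kb from its start (chromosome 16, 9833813 to 9834616), with fold enrichment of 2.62, 2.71, 3.04 and 2.13 at 37 °C and 5.03, 5.86, 6.79 and 3.04 at 39 °C. The log2 difference was 1.11 (SE 0.17, limma adjusted p = 3.69e-06). Replicate 4 at 39 °C had low values throughout, and after centring every 39 °C value of this region lay above every 37 °C value.

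The strongest intronic site of Gabbr2, at 197 kb (chromosome 4, 46794317 to 46796252), had 17.8, 18.7, 15.2 and 16.2 at 37 °C and 26.6, 27.2, 29.9 and 13.5 at 39 °C. It differed by 0.64 (SE 0.085, adjusted p = 4.17e-07), again without overlap after centring. The Gria3 promoter, whose values are given above, was higher by 0.54 (SE 0.094, adjusted p = 2.71e-05), also without overlap. The region in Grin3a was higher by 0.43 (SE 0.097, adjusted p = 0.000648), with 12.7, 10.8, 9.49 and 12.0 at 37 °C and 15.7, 15.9, 14.3 and 8.66 at 39 °C, but it is the promoter of Ppp3r2, a calcineurin subunit gene inside Grin3a. Differences with larger adjusted p also passed in introns of Grin2a (0.45, 9.79 kb from the start) and Grid1 (0.48, groups overlapping) and at the Gabbr1 promoter (0.23). In libraries under 100 M fragments none of these 3 was called (0.37, 0.41 and 0.14).

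Lower at 39 °C were several promoters. Grin3b, which encodes a glycine-binding NMDA subunit, had 9.58, 11.6, 9.61 and 10.4 at 37 °C and 5.86, 4.04, 6.89 and 3.49 at 39 °C, a difference of -0.89 (SE 0.12, adjusted p = 7.23e-07) with no overlap. Its merged region also takes in the promoters of Tmem259 and Wdr18. The highest summit lay 152 to 320 bp from the Grin3b start in every library. The peak over that start was 1689 to 16140 bp wide at 37 °C and 720 to 1208 bp wide at 39 °C. Gabrd fell from 6.05, 6.95, 8.15 and 6.19 to 3.57, 4.20, 3.79 and 3.15, a difference of -0.71 (SE 0.15, adjusted p = 0.000362) without overlap. Grm2 differed by -0.46, Grin2c by -0.36, Grik5 by -0.21 and an internal Grin1 promoter by -0.65, the last with overlap. The Grin2c call was lost without replicate 3 at 37 °C (-0.28) and the Grik5 call without replicate 4 at 39 °C (-0.16).

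Starts within one gene differed in Gabbr1. Its main promoter rose by 0.23 (adjusted p = 0.0293), with overlap between the groups after centring, while promoters at 3 internal starts were lower. At 24.3 kb (chromosome 17, 37069636 to 37070655) peaks had 7.33, 7.04, 5.96 and 8.59 at 37 °C and 4.21, 4.36, 5.19 and 2.92 at 39 °C, a difference of -0.63 (SE 0.13, adjusted p = 0.000213) without overlap. At 4.26 kb and 15.7 kb the differences were -0.38 and -0.24. The first was no longer called without replicate 2 at 37 °C (-0.33) or replicate 3 at 39 °C (-0.24). The second was no longer called without replicate 1 (-0.20) or 4 (-0.20) at 37 °C or replicate 2 (-0.23) or 4 (-0.21) at 39 °C. In libraries under 100 M fragments it was -0.13 (limma adjusted p = 0.385), and -0.11 (adjusted p = 0.489) when replicate 4 at 39 °C was also left out. The rise of the main promoter did not pass with quantile normalization (0.11, adjusted p = 0.18), in libraries under 100 M fragments (0.14, adjusted p = 0.16) or without replicate 4 at 37 °C (0.15, adjusted p = 0.13), replicate 1 at 39 °C (0.17, adjusted p = 0.14) or replicate 4 at 39 °C (0.22, adjusted p = 0.054).

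Introns also held lower regions. The Gabrb2 region at 191.4 kb fell by 0.44 on the log2 scale (SE 0.081, adjusted p = 5.19e-05). Grik4 at 72.6 kb differed by -0.43 and Gabbr2 at 326.1 kb by -0.73. Gabbr2 thus held a region that was higher and a region that was lower at 39 °C within one gene body.

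Letters of the AP-1 site, TGANTCA on either strand, which Fos and Jun proteins bind, lay within 100 bp of the summit in 30 of the 107 receptor regions (28.0%), against 29.0% of all regions. They occurred in regions of both directions. The sequences below are 121 bases of mm10, plus strand, centred on the summits of intronic regions of Grin2a (chr16:9834127-9834247), higher at 39 °C, and of Gabrb2 (chr11:42611073-42611193) and Grik4 (chr9:42871853-42871973), lower at 39 °C, with AP-1 letters in capitals.
Grin2a: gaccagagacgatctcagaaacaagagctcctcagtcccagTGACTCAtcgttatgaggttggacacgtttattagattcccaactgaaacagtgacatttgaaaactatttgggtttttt
Gabrb2: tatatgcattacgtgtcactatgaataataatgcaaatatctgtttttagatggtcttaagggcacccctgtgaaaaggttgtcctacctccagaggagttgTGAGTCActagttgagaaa
Grik4: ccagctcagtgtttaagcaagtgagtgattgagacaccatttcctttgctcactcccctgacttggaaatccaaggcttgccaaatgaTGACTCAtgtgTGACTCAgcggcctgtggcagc
Such a match is a description of the letters and not of a bound factor. The TEAD letters GGAATG were found in 23 receptor regions (21.5%), against 16.9% of all regions, and the cyclic AMP response element TGACGTCA in none, against 0.616%.

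RE1, the element bound by the neuronal gene repressor REST, was searched as CAGCACC, any 2 bases, then GGACAG. It was found in 1 of 107 receptor regions, against 0.124% of all regions. The match began 88 bp downstream of the principal Grin1 start (chr2:25319011-25319039, minus strand, mm10) and is shown with 7 bases on each side, the element in capitals.
Grin1: tacgcttCAGCACCTCGGACAGcacccgc
This is the Grin1 promoter region that was called in 4 libraries at 37 °C and 3 at 39 °C.

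Other genes of glutamate and GABA signalling were taken from a list of 54. Of these, 29 (53.7%) had a promoter peak in all 8 libraries, against 59.9% of coding genes, and 7 (13.0%) in none, against 31.3%. Fewer libraries had the peak at 39 °C at 17 (31.5%), against 7.97%, and more at 0, against 0.47%. Scaffold and trafficking genes were open in all 8 libraries at 14 of 17, including Dlg4, Gphn, Homer1 and Shank1. Auxiliary subunit genes were open at 7 of 18 and closed at 4 (Cacng5, Cacng8, Neto1 and Kctd8). Cacng3, an AMPA receptor regulator, was called in 4 libraries at 37 °C and none at 39 °C. The enzyme genes Glul and Abat were open in all 8, Gad1 in 7 and Gad2 in 1. Among plasma membrane transporters Slc1a2 and Slc1a3, of glial glutamate uptake, were open in all 8, and the GABA transporters Slc6a11 and Slc6a13 were closed. None of the 54 passed the adjusted Fisher's exact test (adjusted p = 1 for each).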

How the data were processed

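The 8 ATAC-seq libraries, 4 for each temperature, were analysed from deposited peak lists. Per the file headers and the submitters' processing notes, the authors aligned reads with Bowtie2 2.4.1 to mm10, handled them with SAMtools 1.15.1 and Picard 2.26.11 and called peaks for each library separately with MACS3 3.0.0a7, without a control, at a q-value cutoff of 0.05. Bedtools 2.30.0 is also listed. Peaks are numbered without a gap in every list, so removal of blacklisted regions, which the study's methods describe, is not visible in them, and the region counts may include such regions. The authors' lists give the deposited pileup (coverage signal), the fold enrichment ratio and −log10 p and −log10 q values. Read counts were not used here, so no count test was run.

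The receptor genes, gene lists and named regions were chosen with earlier results of these data known. Named regions were the 10 with the smallest limma p, regions restricted to one temperature, genes whose counts differed by 2 or more libraries, and the remaining calls in brief. Other values, among them the Gabrb2, Gabbr2 and Gria1 introns, were singled out after being seen. Some genes are counted in the totals but not reported here by name. Peaks overlapping by at least 1 bp were merged, and regions of at least 2 libraries were kept. Presence was compared by Fisher's exact test (SciPy 1.17.1), two-sided, and centred log2 fold enrichment by limma 3.58.1 in R 4.3.3, with Benjamini-Hochberg adjustment at 0.05. Python 3.11.15, pandas 2.3.3 and pysam 0.24.0 were used otherwise. On simulated data with 200 of 44861 regions changed, limma recovered 53.5% of log2 differences of 0.5 and 94.5% of those of 1, with 2 and 5 false calls. In the data itself 12052 regions were called higher and 8777 lower, and the simulated noise was independent and normal, so these rates need not hold there. Alternatives were quantile normalization, pileup scaled to library depth, −log10 q of at least 5, lists of equal length, libraries under 100 M fragments, other promoter definitions, a replicate block and leaving out each library.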

Additional observations from a re-analysis of the deposited data

Results flagged for a closer look

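In the Gria3 promoter region, replicate 2 at 37 °C had a fold enrichment of 13.3, apart from the 10.7 to 10.9 of the other 37 °C libraries, which flagged it as a sample far from its group by Dixon's test. It was 1 of 24 groups of 4 examined, in which chance would flag about 1.2.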

How the results depend on the processing

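Of 469 comparisons of a result with an alternative, 436 kept their direction and their side of the threshold or stayed near the reported count. These include the counts of adjusted Fisher calls over coding genes and over related genes, which stayed at 0 whichever library was left out. So few libraries put such calls out of reach, so those comparisons say nothing on stability. With lists of equal length the difference in receptor regions per library, 39 °C minus 37 °C, changed from -18.25 to 1.25. In the full lists the kept regions per library averaged 73895 at 37 °C and 57450.5 at 39 °C. Receptor regions made up 0.116% ± 0.0069 and 0.122% ± 0.0091 of all merged regions, those called by a single library included (SD, n = 4). With equal lists, regions restricted to 37 °C numbered 2 in place of 5 and those restricted to 39 °C 3 in place of 0. Regions restricted to 37 °C numbered 1 at −log10 q of at least 5 and 3 with 100 bp windows around summits. In libraries under 100 M fragments 4 regions were restricted to 39 °C, and 5 in place of 8 had higher peaks at 39 °C (7 when replicate 4 at 39 °C was also left out, an alternative added after seeing the data). With a 5 kb promoter window 1 gene in place of 0 had a promoter peak in more libraries at 39 °C. With principal starts and lists of equal length, added after seeing the data, 3 in place of 5 genes had fewer at 39 °C. The cause of these changes was not tested. Leaving out each library in turn gave 5 to 9 regions restricted to 37 °C, 0 to 2 restricted to 39 °C, 7 to 9 with higher and 12 to 14 with lower peaks at 39 °C, 4 to 5 genes with fewer promoter peaks at 39 °C, and a difference per library of -23.4 to -11.75. Of 21 called peak heights, 14 kept the call under every alternative in which they were fitted. At −log10 q of at least 5, and with lists of equal length, only 38 of the 44 receptor regions were fitted. With lists of equal length the Grin2a region at 160.7 kb, which had the largest difference, was not among them. Deviations of libraries with the same replicate number correlated at 0.097, -0.11, 0.136 and 0.042, so the numbers were not taken as pairing, and a fit with the replicate block gave 8 higher and 13 lower regions, as without it. Unequal depth, the shortest peak length allowed and the lack of read counts limit every statement on a missing peak.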
